A study of Mus musculus with 6 samples.

Results

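Pericytes and vascular smooth muscle cells, together called mural cells, were followed in mouse visceral fat through 31 genes, taken by symbol from the 55011 gene symbols of the deposited count table. All 31 symbols were in the table: 9 of the thick and thin filaments, 5 that control contraction, 4 of the cytoskeleton and its adhesions, 10 of pericyte identity and 3 others that mark mural cells less strictly. Of these, 24 had enough counts to be tested and 7 did not. RNA came from whole visceral adipose tissue of male C57BL/6 mice aged 30 weeks, which had spent 14 weeks on low-fat food followed by 16 weeks on high-fat food, and was taken at zeitgeber time 0 h, when the lights go on. Every mouse, controls included, carried Foxp3.Cre-YFP, a Cre recombinase driven from the gene of the regulatory T cell factor Foxp3. The groups were Bmal1WT and Bmal1KO, with 3 libraries each, so the deletion of Bmal1 was aimed at regulatory T cells and no mural cell was targeted by design. The labels number the libraries and do not state whether each one is its own animal, so the p-values reflect variation among these libraries.

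Mural cells wrap the endothelial tubes of blood vessels. Smooth muscle cells of arteries and veins contract when calcium and calmodulin switch on myosin light chain kinase, which lets smooth muscle myosin pull on actin filaments. Pericytes sit on capillaries under the control of PDGF-B made by endothelium and received by PDGFRB, of Notch ligands received by NOTCH3, and of a potassium channel built from the proteins of Kcnj8 and Abcc9. Many contractile genes are switched on by serum response factor at a DNA element called the CArG box. In fat, the vessels feed adipocytes and their mural cells are also a reported source of adipocyte precursors.

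Libraries held 6514620 to 9529198 counts. Values are CPM, the usual abundance unit that sets counts relative to the library total, here after TMM scaling, unless stated. Bmal1KO replicate 1 was the shallowest library and still had counts on 30019 genes, against 19009 to 20145 in the other 5. Bmal1WT replicate 1 held 6568 counts on 16 epididymis genes, against 0 to 38 in the other 5 libraries. Both libraries stand apart, and the values that leaving out either of them moves most are given without it. Arntl, the gene for BMAL1, had 242 to 373 counts in Bmal1WT and 289 to 324 in Bmal1KO (log2 fold change 0.27, SE 0.22, adjusted p = 0.719), and Foxp3 had 0 to 3 counts per library, which leaves whole tissue as a weak check of the labels.

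The sequence just before the transcription start was available for 24 of the 31 genes, in 25 windows of 250 bases on the RefSeq build GRCm38.p6 (the mm10 assembly). They were searched on both strands for the CArG box, for a CArG box with 1 G or C among the 6 A or T bases of its core, for the BMAL1 element CACGTG and for the core TGGGAA bound by RBPJ, the DNA-binding partner of Notch. Actg2, Myh11, Tagln, Aoc3, Heyl, Higd1b and Pdgfrb had no window and were not searched. Shown are the windows of Acta2 and Myl9, filament genes whose windows hold CArG elements, and of Rgs5 and Kcnj8, the pericyte genes that passed the test under some settings. Capitals mark the searched elements.
Acta2, chr19:34255374-34255623, minus strand: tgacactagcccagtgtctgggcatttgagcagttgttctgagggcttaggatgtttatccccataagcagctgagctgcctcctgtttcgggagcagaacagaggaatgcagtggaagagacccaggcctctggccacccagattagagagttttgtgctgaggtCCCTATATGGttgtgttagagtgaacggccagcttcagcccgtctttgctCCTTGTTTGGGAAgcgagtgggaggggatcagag
Myl9, chr2:156775214-156775463, plus strand: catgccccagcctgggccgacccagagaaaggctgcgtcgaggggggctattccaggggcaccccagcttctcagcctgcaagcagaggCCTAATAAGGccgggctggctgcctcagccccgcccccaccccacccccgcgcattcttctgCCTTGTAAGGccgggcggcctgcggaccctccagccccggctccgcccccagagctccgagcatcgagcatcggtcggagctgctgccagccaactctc
Rgs5, chr1:169655251-169655500, plus strand: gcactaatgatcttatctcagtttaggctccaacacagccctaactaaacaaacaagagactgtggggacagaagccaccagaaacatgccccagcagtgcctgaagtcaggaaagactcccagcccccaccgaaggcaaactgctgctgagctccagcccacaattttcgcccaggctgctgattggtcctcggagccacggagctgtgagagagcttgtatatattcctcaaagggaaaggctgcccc
Kcnj8, chr6:142571615-142571864, minus strand: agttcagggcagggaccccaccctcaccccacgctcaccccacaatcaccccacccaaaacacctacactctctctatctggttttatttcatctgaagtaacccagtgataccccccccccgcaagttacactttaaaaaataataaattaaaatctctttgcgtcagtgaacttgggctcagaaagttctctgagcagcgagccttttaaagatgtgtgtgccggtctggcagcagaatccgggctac

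The Myl9 window held the CArG box CCTAATAAGG, beginning 161 bases before the start, and the relaxed form CCTTGTAAGG, beginning 99 bases before it. The Acta2 window held the relaxed forms CCCTATATGG and CCTTGTTTGG, beginning 84 and 34 bases before the start, and the second shared 3 bases with a TGGGAA. The strict CArG box was in 1 of the 24 genes, against 1.47% of 32851 promoter windows of mouse genes, and the relaxed form in 3 (Acta2, Myl9 and Pcp4l1), against 7.24%. TGGGAA was in 4 genes (Abcc9, Acta2, Smtn and Tpm1), against 21.6% of all, and CACGTG in 0, against 6.02%. The Rgs5 and Kcnj8 windows held none of these. These matches describe the letters of the windows only.

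The libraries held the defining genes of both mural cell types, at unequal levels. Scaled to exon length, Sncg was highest at 1656 CPM per kilobase over the 6 libraries. Sncg encodes gamma-synuclein, which adipocytes also make in quantity. Acta2, the smooth muscle alpha actin, followed at 91.5 CPM per kilobase. Among pericyte genes Mcam was at 36.5, Pdgfrb at 9.40, Rgs5 at 7.10 and Kcnj8 at 6.53 CPM per kilobase. Smooth muscle myosin Myh11 was at only 1.11 CPM per kilobase, and the calponin gene Cnn1 and the actin-binding gene Tagln were at 0.343 and 0.549.

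Tagln encodes transgelin, usually an abundant smooth muscle transcript, and here its counts were 17, 7 and 8 in the Bmal1WT libraries and 5, 5 and 13 in the Bmal1KO libraries. In GENCODE M21, 67.9% of its exon bases overlap exons of other genes on the opposite strand, chiefly Pcsk7 and Gm48529, and the libraries do not mark strand. Of the 38 bp stretches of its transcripts, the length of 1 read, 60.8% also lie in transcripts of those genes. Its level is therefore uncertain, as is that of Pln, with 58.2% of stretches shared. Smtn shared 11.0%, and each of the other 28 members shared 5.54% or less, Acta2 0.88% among them. A mismatched read can still be placed on a similar actin gene.

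None of the pericyte and smooth muscle genes passed the quasi-likelihood test of edgeR after Benjamini-Hochberg adjustment over 13859 genes, nor did any other gene (percent called 0, smallest adjusted p among members 0.434). Most were lower in Bmal1KO: 20 of the 24 tested had a negative log2 fold change, against 48% of all genes tested. The median log2 fold change was -0.27, against 0.02 over all genes. At an unadjusted p under 0.05 stood 4 members, all lower: the filament genes Acta2 and Myl9, the pericyte gene Rgs5, and Mustn1, only grouped here with cytoskeletal genes. That is 16.7% of those tested, against 9.31% of all genes in either direction, 4.26% lower and 5.05% higher. DESeq2 called 0 members, while it called 0.0695% of its 34517 genes lower and 0.104% higher. It put 5 members at an unadjusted p under 0.05, against 1.92% of its genes lower and 2.81% higher. With no filter on low counts edgeR called 2 members, both lower (0.226% of genes were called lower and 0.313% higher), and put 8 at an unadjusted p under 0.05, against 2.63% of genes lower and 4.62% higher. Those last fits include many genes with few counts.

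**Figure D1:**
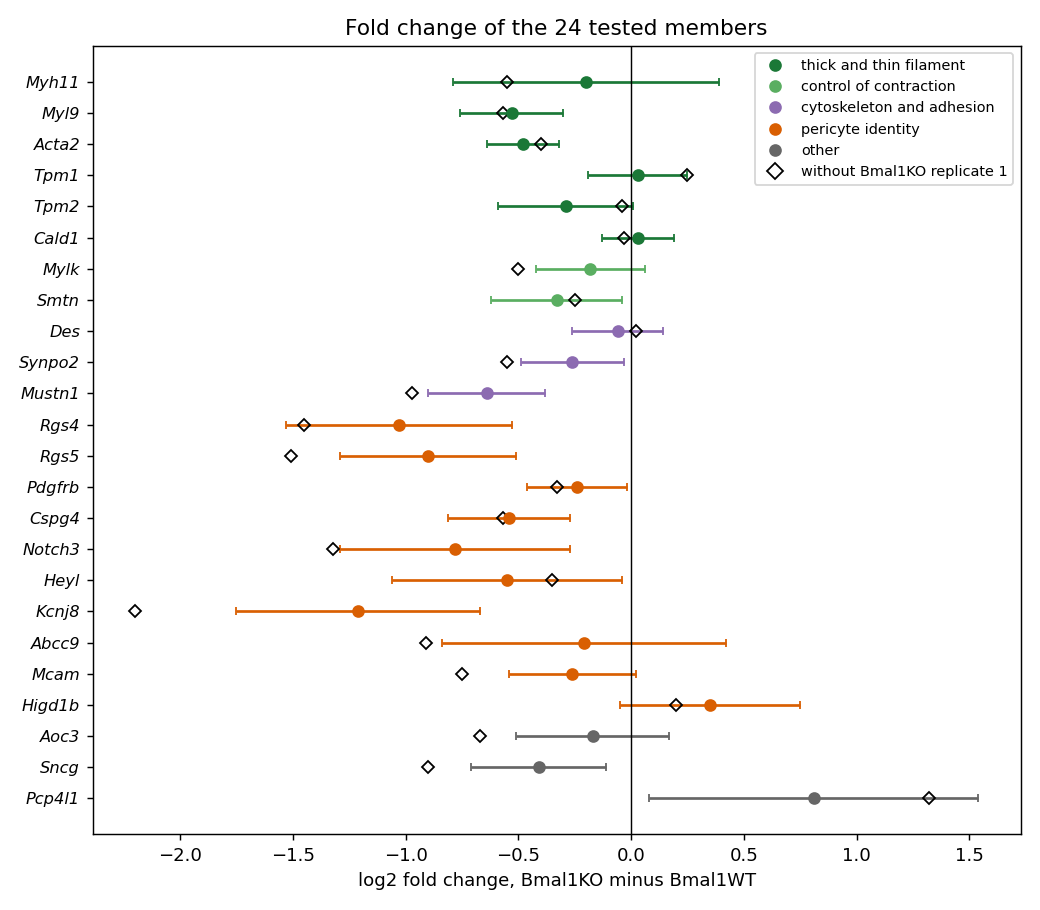
Log2 fold change (Bmal1KO minus Bmal1WT) of the 24 tested genes, with bars of 1 SE, coloured by role; open diamonds give the same estimate without Bmal1KO replicate 1. Most points lie left of 0, and the diamonds of Kcnj8 (-2.20) and Rgs5 (-1.51) lie furthest left.

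The size of the difference depended on single libraries. Without Bmal1KO replicate 1 the median of the members tested was -0.55 and 13 members stood at an unadjusted p under 0.05, 12 lower and 1 higher, against 8.66% of all genes lower and 7.53% higher. Rgs5, Kcnj8 and Sncg then passed the test over all genes (0.772% of genes were called lower and 0.323% higher in that fit). With both replicates 1 left out together, 0 members passed (0.358% of genes were called lower and 0.0788% higher), while 13 stood at an unadjusted p under 0.05, 11 lower and 2 higher, against 7.62% and 7.28% of all genes. Without Bmal1WT replicate 3 the median was -0.14 with 2 members at an unadjusted p under 0.05, both lower, against 2.77% of all genes lower. Without Bmal1KO replicate 2, without Bmal1WT replicate 1 and without Bmal1KO replicate 3 there were 1, 1 and 2 such members, all lower, against 2.87%, 2.63% and 3.33% of all genes lower. Genes in either direction made up 6.97% to 7.61% in these 4 fits. Counts of 1 or 2 among 25 to 27 tested members were near that share, though all were lower. The fit without Bmal1WT replicate 2 had 4 such members of 26 (Myl9, Mustn1, Rgs4 and Rgs5), all lower, against 2.85% of all genes lower. Leaving out Bmal1KO replicate 1 also moved single members that did not pass: Mcam went from -0.26 to -0.75 (SE 0.17, adjusted p = 0.0586), Synpo2 from -0.26 to -0.55, Mylk from -0.18 to -0.50, Mustn1 from -0.64 to -0.97, Rgs4 from -1.03 to -1.45, Notch3 from -0.78 to -1.32, Abcc9 from -0.21 to -0.91 and Aoc3 from -0.17 to -0.67. Leaving out Bmal1WT replicate 1 moved Cspg4 from -0.54 to -0.30 and Abcc9 from -0.21 to -0.59.

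Of the 9 genes of the contractile filaments, 6 were tested and 4 had a negative log2 fold change (median -0.25), against 48% of all genes tested. Acta2 (chromosome 19, 34241090 to 34255590) was at 242, 258 and 202 CPM in Bmal1WT replicates 1 to 3 and at 149, 179 and 176 CPM in Bmal1KO replicates 1 to 3. Every Bmal1KO library lay below every Bmal1WT library. The means were 234 ± 29.0 and 168 ± 16.5 CPM (SD, n = 3 each), a log2 fold change of -0.48 (SE 0.16, adjusted p = 0.434). Acta2 was the only one of the 24 tested members whose Bmal1KO values all lay below Bmal1WT, a pattern found in 7.85% of all genes tested. Its log2 fold change ran from -0.57 to -0.40 with 1 library left out.

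Myl9, the regulatory light chain that myosin light chain kinase phosphorylates, was at 48.9, 31.3 and 49.0 CPM in Bmal1WT, against 31.7, 24.3 and 33.6 CPM in Bmal1KO. The groups overlapped through Bmal1WT replicate 2 alone. The log2 fold change was -0.53 (SE 0.23, adjusted p = 0.523). Myh11, the smooth muscle myosin heavy chain, was at 7.30, 5.16 and 14.5 CPM in Bmal1WT, against 11.3, 1.81 and 10.5 CPM in Bmal1KO. Bmal1KO replicate 2 was lowest, on 16 counts, while the other Bmal1KO libraries lay inside the Bmal1WT range. Its log2 fold change of -0.20 (SE 0.59, adjusted p = 0.937) turned to 0.27 without Bmal1KO replicate 2 and to 0.33 without Bmal1WT replicate 3.

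The remaining filament genes are also made outside muscle. Tpm1 and Cald1, for tropomyosin and the actin-binding caldesmon, each had a log2 fold change of 0.03, with an SE of 0.22 and of 0.16, within 1 SE of 0 in both. Tpm2, for the beta tropomyosin, was at 11.6 CPM in Bmal1KO replicate 1 and at 19.0 to 26.4 CPM in the other 5 libraries (log2 fold change -0.29, SE 0.30). That difference rested on single libraries: it was -0.04 without Bmal1KO replicate 1 and -0.61 without Bmal1KO replicate 2.

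Of the genes that control contraction, the kinase gene Mylk ran from 46.4 to 55.3 CPM in Bmal1WT and from 34.0 to 64.5 CPM in Bmal1KO (log2 fold change -0.18, SE 0.24, adjusted p = 0.837). Bmal1KO replicate 1 was the highest of all 6 libraries for it and the other Bmal1KO libraries the lowest. Smtn, for the contractile protein smoothelin, was at 14.7, 20.2 and 30.2 CPM in Bmal1WT, against 15.2, 16.9 and 19.6 CPM in Bmal1KO, so all Bmal1KO values lay inside the Bmal1WT range (log2 fold change -0.33, SE 0.29, adjusted p = 0.743, and -0.01 without Bmal1WT replicate 3).

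Mustn1, a small nuclear protein of muscle and skeletal tissues, was at 78.6, 48.9 and 59.7 CPM in Bmal1WT, against 56.8, 31.6 and 32.0 CPM in Bmal1KO. Bmal1KO replicates 2 and 3 lay below every Bmal1WT library and replicate 1 between them (log2 fold change -0.64, SE 0.26, adjusted p = 0.495). Synpo2, an actin-bundling protein of the Z-disc, was at 201, 232 and 298 CPM in Bmal1WT, against 279, 160.3 and 172 CPM in Bmal1KO, again with Bmal1KO replicates 2 and 3 below every Bmal1WT library (log2 fold change -0.26, SE 0.23, adjusted p = 0.753). Des, the muscle intermediate filament desmin, was at 34.9, 34.4 and 40.1 CPM and at 30.7, 32.4 and 41.9 CPM. For Des, Bmal1KO replicates 1 and 2 lay below every Bmal1WT library and replicate 3 above them all (log2 fold change -0.06, SE 0.20, adjusted p = 0.944). The log2 fold change turned to 0.04 with library size alone in place of TMM.

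**Figure D2:**
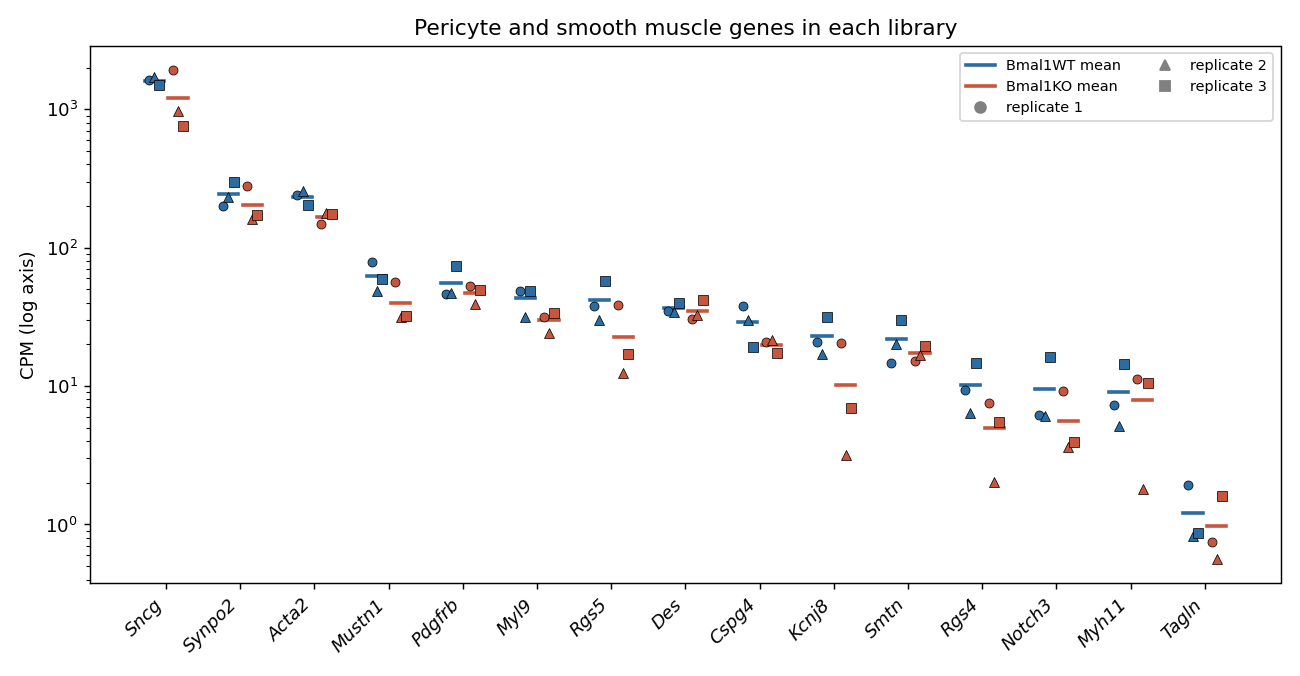
CPM on a log axis for 15 pericyte and smooth muscle genes in each library; marker shape gives the replicate number and horizontal bars the group means. Acta2 is the only gene shown whose groups do not overlap, and for Rgs5 and Kcnj8 Bmal1KO replicates 2 and 3 lie apart from replicate 1.

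Pericyte genes had the lowest median of the 5 roles. Of the 10, all tested, 9 had a negative log2 fold change and 1 stood at an unadjusted p under 0.05, with a median of -0.55. Whole tissue cannot tell fewer pericytes from less RNA per pericyte.

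Kcnj8 (chromosome 6, 142564837 to 142571614) encodes the pore of the pericyte ATP-sensitive potassium channel. It was at 20.8, 17.0 and 31.6 CPM in Bmal1WT, against 20.3, 3.17 and 6.95 CPM in Bmal1KO. Bmal1KO replicate 1 lay inside the Bmal1WT range, while replicates 2 and 3 had 28 and 56 counts against 135 to 294 in the other 4 libraries. The log2 fold change was -1.21 (SE 0.54, adjusted p = 0.535) over all libraries and -2.20 (SE 0.42, adjusted p = 0.0417) without Bmal1KO replicate 1. With no filter on low counts it was -1.24 and passed (adjusted p = 0.0249).

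Abcc9, its neighbour on chromosome 6 and the gene of the regulatory subunit of that channel, was at 1.94, 7.15 and 5.81 CPM in Bmal1WT, against 7.67, 1.70 and 3.60 CPM in Bmal1KO. The groups overlapped fully (log2 fold change -0.21, SE 0.63, adjusted p = 0.936), on 15 to 61 counts per library. Bmal1KO replicate 2 was lowest for both channel genes.

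Rgs5 (chromosome 1, 169655501 to 169695813), which shortens signalling by G proteins and is a classical pericyte marker, was at 38.2, 30.2 and 57.4 CPM in Bmal1WT, against 38.3, 12.5 and 17.0 CPM in Bmal1KO. It showed the same split, with Bmal1KO replicate 1 inside the Bmal1WT range and replicates 2 and 3 below it. The log2 fold change was -0.90 (SE 0.39, adjusted p = 0.515), or -1.51 (SE 0.31, adjusted p = 0.046) without Bmal1KO replicate 1. With no filter on low counts it was -0.93 and passed (adjusted p = 0.0315). Rgs4, a related regulator that lies beside it on chromosome 1, was at 9.35, 6.44 and 14.7 CPM in Bmal1WT, against 7.52, 2.04 and 5.46 CPM in Bmal1KO. The groups overlapped through Bmal1KO replicate 1 (log2 fold change -1.03, SE 0.50, adjusted p = 0.551).

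Over all libraries, the surface protein genes Pdgfrb, Cspg4 and Mcam had smaller log2 fold changes than Kcnj8, Rgs5 and Rgs4. Pdgfrb, the PDGF-B receptor, was at 46.5, 47.3 and 73.5 CPM in Bmal1WT, against 52.8, 39.2 and 49.5 CPM in Bmal1KO. The higher Bmal1WT mean came from replicate 3, and the log2 fold change of -0.24 (SE 0.22, adjusted p = 0.753) was 0.01 without that library. Cspg4, which encodes the proteoglycan NG2, was at 37.6, 30.0 and 19.3 CPM in Bmal1WT, against 20.8, 21.6 and 17.4 CPM in Bmal1KO. Here Bmal1WT replicate 3 was the lowest of its group, the reverse of Pdgfrb (log2 fold change -0.54, SE 0.27, adjusted p = 0.561). Mcam, for the adhesion molecule CD146 that endothelium also carries, ran from 123 to 153 CPM in Bmal1WT while the Bmal1KO libraries were at 176, 80.4 and 78.5 CPM (log2 fold change -0.26, SE 0.28, adjusted p = 0.80).

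Notch3, the mural cell Notch receptor, was at 6.16, 6.09 and 16.2 CPM in Bmal1WT, against 9.17, 3.62 and 3.97 CPM in Bmal1KO. Bmal1WT replicate 3 was the highest library, and the log2 fold change of -0.78 (SE 0.51, adjusted p = 0.656) was -0.14 without it. Heyl, a transcription factor gene that Notch signalling switches on, ran from 3.28 to 8.72 CPM in Bmal1WT and from 2.56 to 4.87 CPM in Bmal1KO, and its log2 fold change of -0.55 (SE 0.51, adjusted p = 0.759) was -0.02 without the same library. Higd1b, a mitochondrial membrane protein gene used as a pericyte marker, went the other way: it ran from 3.87 to 4.95 CPM in Bmal1WT and from 4.96 to 6.77 CPM in Bmal1KO. The groups touched without overlapping, as in 7.83% of all genes tested in that direction (log2 fold change 0.35, SE 0.40, adjusted p = 0.806).

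**Figure D3:**
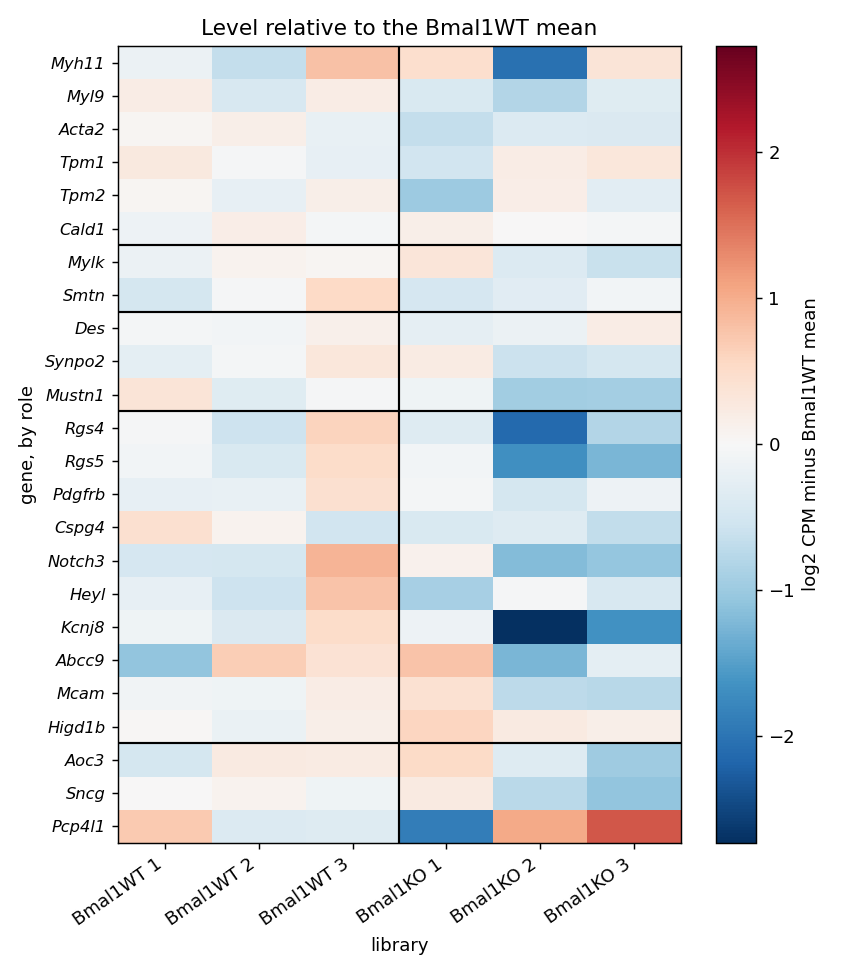
Log2 CPM of the 24 tested genes in each library minus the mean of the Bmal1WT libraries, with black lines between roles and between groups. Blue cells gather among the pericyte genes in Bmal1KO replicates 2 and 3, with Kcnj8 at -2.73 and -1.65, while the column of Bmal1KO replicate 1 is mixed.

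The other 3 genes mark mural cells less strictly. Sncg was at 1623.5, 1716.5 and 1489.9 CPM in Bmal1WT, against 1911, 964 and 760.3 CPM in Bmal1KO. Bmal1KO replicate 1 was the highest library and replicates 2 and 3 the lowest (log2 fold change -0.41, SE 0.30, adjusted p = 0.686, and -0.90, SE 0.16, adjusted p = 0.0326 without Bmal1KO replicate 1). Aoc3, for a surface amine oxidase of smooth muscle and adipocytes, had the same order in Bmal1KO at 194, 104.5 and 68.2 CPM, around a Bmal1WT range of 97.2 to 159 CPM (log2 fold change -0.17, SE 0.34, adjusted p = 0.895). Pcp4l1, a small protein related to a calmodulin regulator, was the reverse, at 3.01, 24.5 and 38.3 CPM in Bmal1KO against 9.02 to 19.5 CPM in Bmal1WT (log2 fold change 0.81, SE 0.73, adjusted p = 0.761). It was 0.14 without Bmal1KO replicate 3, 1.32 without Bmal1KO replicate 1 and 1.29 without Bmal1WT replicate 1.

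Of the members, 7 had too few counts to be tested. Actg2, the gamma smooth muscle actin of visceral muscle, had 160 counts in Bmal1WT replicate 1, 0 in Bmal1WT replicates 2 and 3, and 5, 0 and 15 in Bmal1KO. Its only high library was thus the one with the epididymis transcripts, a tissue whose duct has a muscle wall, and the part of that tissue in the Actg2 counts was not tested. Cnn1 had 0, 24 and 16 counts in Bmal1WT and 4, 0 and 4 in Bmal1KO, and Lmod1, a leiomodin that seeds actin filaments, had 6, 12 and 6 against 2, 4 and 0. Ppp1r14a, an inhibitor of myosin phosphatase, had 4 to 14 counts in each library. Itga8, an integrin chain, had 0 to 7. Pln, a brake on the calcium pump of muscle, had 3 counts in Bmal1KO replicate 1 and 0 in the other 5 libraries. A count of 0 allows up to 3 counts, or 0.315 to 0.461 CPM in these libraries on their totals without TMM scaling. No difference was therefore detectable for Itga8 and Pln.

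Across the 24 tested genes the Bmal1KO libraries were unalike. Bmal1KO replicate 1 lay below all Bmal1WT libraries for 6 genes, inside their range for 12 and above it for 6, against 27.8%, 42.6% and 29.6% of all genes tested. Replicates 2 and 3 lay below all Bmal1WT libraries for 15 and 13 genes, 62.5% and 54.2%, against 29.8% and 30.5% of all genes. The mean over the 10 pericyte genes, in log2 CPM relative to the Bmal1WT mean, was -0.18, -0.21 and 0.40 for the Bmal1WT libraries and 0.00, -1.03 and -0.69 for the Bmal1KO libraries. The mean over the 6 tested filament genes was 0.05, -0.16 and 0.12 in Bmal1WT and -0.33, -0.47 and -0.07 in Bmal1KO. The filament mean leans on Myh11, which was at -2.04 in Bmal1KO replicate 2 on 16 counts and at 0.35 in Bmal1KO replicate 3.

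Markers of other cells also varied between the libraries. The mean of 12 endothelial genes was -0.12, -0.48 and 0.61 for the Bmal1WT libraries and -0.10, -1.08 and -0.84 for the Bmal1KO libraries. Across both groups this was the same order of libraries as for the pericyte genes. All 12 had negative log2 fold changes (median -0.65), against 48% of all genes tested. At an unadjusted p under 0.05 stood 4 of them, all lower, against 4.26% of all genes lower. Their summed level ran from 478 to 1023 CPM in Bmal1WT and from 329 to 555 CPM in Bmal1KO. The mean of 13 adipocyte genes was 0.24, -0.56 and -0.80 for Bmal1KO replicates 1 to 3, and their summed level ran from 34195 to 42245 CPM in Bmal1WT and from 21754 to 42647 CPM in Bmal1KO. Of these 13, 12 had a negative log2 fold change (median -0.29), so the lower direction was not particular to the mural genes. Of 11 T cell genes all were higher, against 7201 of the 13859 genes tested. Their summed levels were 30.6 to 85.5 CPM in Bmal1WT, lowest in replicate 1, and 103 to 241 CPM in Bmal1KO. The 10 macrophage genes summed to 8277 to 12528 CPM in Bmal1WT and to 8272, 14835 and 17641 CPM in Bmal1KO replicates 1 to 3. The 12 genes of stromal progenitors, whose cells share Pdgfrb, summed to 5729 to 8739 CPM and to 5658 to 8430.3 CPM, and the 11 mesothelial genes to 253 to 521 CPM and to 545 to 604 CPM. The part of these shifts in tissue makeup in the values of the mural genes was not tested.

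Skeletal muscle, which shares Des, Tpm1, Tpm2 and Mustn1 with smooth muscle, was nearly absent from the libraries. Its 12 markers summed to 22.8 to 48.0 CPM in Bmal1WT and 36.4 to 74.9 CPM in Bmal1KO, of which the actin Acta1 made 15.2 to 42.7 and 20.8 to 69.2 CPM. The creatine kinase gene Ckm had 0 to 5 counts per library and the muscle factor gene Myod1 had 0 in all.

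**Figure D4:**
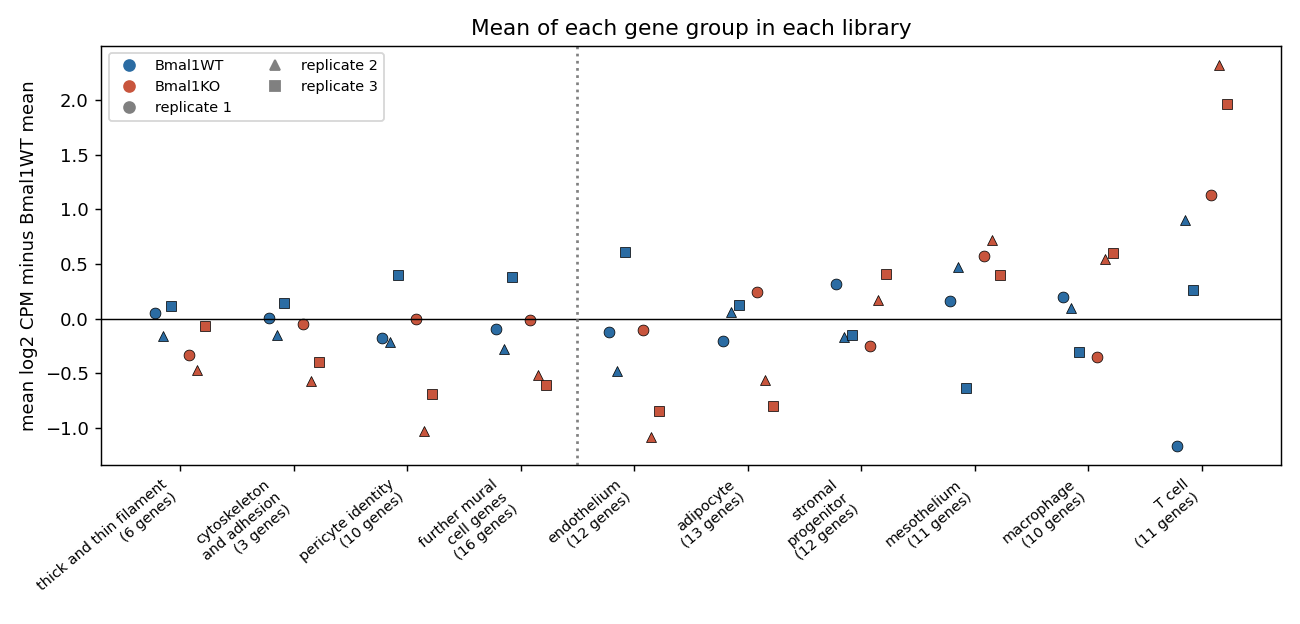
Mean log2 CPM of the tested genes of each group in each library, minus the Bmal1WT mean, for mural genes (left of the dotted line) and for markers of other cells. Pericyte and endothelial means are lowest in Bmal1KO replicates 2 and 3, and T cell means are above 1 in every Bmal1KO library.

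The wider mural program was read from 5 further lists of 115 symbols that are not members. Of these, 110 had a row, 96 were tested and 0 passed. Of the 19 further mural cell genes, 16 were tested. Of these 12 had a negative log2 fold change, against 48% of all genes tested, with a median of -0.59. At an unadjusted p under 0.05 stood 5 (31.2%), 4 of them lower (25.0%). Over all genes tested the shares were 9.31% in either direction and 4.26% lower. Gja4, which encodes connexin 37 of arterial endothelium and mural cells, was at 15.5, 10.9 and 20.9 CPM in Bmal1WT, against 4.36, 4.53 and 4.71 CPM in Bmal1KO. All 3 Bmal1KO libraries, replicate 1 included, lay under every Bmal1WT library (log2 fold change -1.79, SE 0.34, adjusted p = 0.318). It passed with DESeq2 (adjusted p = 0.00768) and with no filter on low counts (adjusted p = 0.00209).

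Tinagl1, a matrix protein of vessel walls, was at 124, 106 and 143 CPM in Bmal1WT, against 83.5, 84.3 and 66.8 CPM in Bmal1KO, with no overlap (log2 fold change -0.67, SE 0.18, adjusted p = 0.414). Cox4i2, a respiratory chain subunit found in pericytes, was at 5.59, 4.45 and 6.46 CPM and at 2.26, 1.70 and 1.24 CPM, again with no overlap (log2 fold change -1.67, SE 0.50, adjusted p = 0.414). These 3 were named for their small p, which favours groups that do not overlap. Bmal1KO lay wholly below Bmal1WT for 4 of the 16 tested genes of the list, against 7.85% of all genes tested. The mean over all 16 tested genes of the list was -0.09, -0.28 and 0.38 for Bmal1WT replicates 1 to 3, with -0.01, -0.51 and -0.61 for the Bmal1KO libraries, so over the list Bmal1KO replicate 1 lay inside the Bmal1WT range, as for the pericyte members.

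Among 20 further contractile and adhesion genes, 14 had a negative log2 fold change (median -0.10), against 48% of all genes tested. Of the 20, 3 stood at an unadjusted p under 0.05, 2 of them lower, against 9.31% of all genes in either direction and 4.26% lower. Bmal1KO lay wholly below Bmal1WT for 2 (Itga7 and Ilk) and wholly above for 1 (Lpp), against 7.85% and 7.83% of all genes tested. These 3 genes were named for their small p, which favours groups that do not overlap. Itga7, the laminin-binding integrin chain of muscle, was at 265 ± 36.8 and 152 ± 47.3 CPM (SD, n = 3 each; log2 fold change -0.80, SE 0.23, adjusted p = 0.414), with no overlap. It passed with no filter on low counts (log2 fold change -0.83, adjusted p = 0.00494) and also once Bmal1KO replicate 1 was left out (-1.02, adjusted p = 0.0461). Ilk, the integrin-linked kinase, was at 18.2 ± 2.95 and 10.6 ± 0.249 CPM (log2 fold change -0.78, SE 0.26, adjusted p = 0.431), with no overlap, but 89.7% of its exon bases lie under genes of the opposite strand (Rrp8 and Taf10), so its level is uncertain. Lpp, of focal adhesions, was higher, at 69.3 ± 11.8 and 90.2 ± 5.25 CPM (log2 fold change 0.38, SE 0.17, adjusted p = 0.534).

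The signals and factors that govern mural cells showed no common direction. Of 25 tested genes of PDGF, Notch, TGF-beta and angiopoietin signalling, 12 had a negative log2 fold change, against 48% of all genes tested. Their median was 0.02, and 0 stood at an unadjusted p under 0.05, against 9.31% of all genes. The ligand gene Pdgfd had a log2 fold change of 0.64 (SE 0.29, adjusted p = 0.535), the receptor gene Pdgfra of stromal progenitors 0.51 (SE 0.24, adjusted p = 0.544) and the Notch ligand gene Jag1 -0.56 (SE 0.27, adjusted p = 0.551). Of 16 tested transcription factor genes of smooth muscle, 6 had a negative log2 fold change (median 0.09), with Csrp2 at 0.52 (SE 0.24), Gata6 at 1.09 (SE 0.52) and Smad3 at -0.36 (SE 0.23). Of 19 tested genes of contraction signalling, 8 had a negative log2 fold change (median 0.11), and the smallest adjusted p was 0.635. There the phosphatase subunit gene Ppp1r12a was at 0.34 (SE 0.21), the angiotensin receptor gene Agtr1a at -0.58 (SE 0.37) and the kinase gene Rock1 at 0.28 (SE 0.19).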

How the data were processed

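The deposited values are whole-number counts per gene symbol, 1 column per sample, which the authors made with STAR 2.7.3a on mm10 and featureCounts, per the submitters' processing notes. Which annotation and strand setting were used, and how multiple hits were treated, was not given in the sources used here. Per the labels' protocols, oligo(dT)-primed cDNA was amplified and cut by transposase, which marks no strand and no molecule. The floors given for counts of 0 therefore cover counting error only, while the SE also reflects variation among the libraries. Counts were tested with edgeR 4.0.16 (limma 3.58.1, R 4.3.3): filterByExpr kept 13859 genes, TMM scaled the libraries, and the robust quasi-likelihood F-test compared Bmal1KO with Bmal1WT without covariates, with Benjamini-Hochberg adjustment at 0.05. The SE is the unshrunken coefficient over the root of F. Mean log2 CPM used a prior count of 2. Alternatives included DESeq2 1.42.0 and limma voom. Steps were tested on simulated data. Exon lengths, overlaps and shared stretches came from GENCODE M21, promoters from RefSeq GRCm38.p6. Of 243 list entries, 5 symbols had no row.

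Members and lists were chosen with earlier results of these data known. All 31 members were named. Every library's value was printed for the 12 tested members of smallest p and 8 defining genes (15 in all), and others where useful. From each further list the 3 genes of smallest p were named.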

Additional observations from a re-analysis of the deposited data

How the results depend on the processing

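No call was made over all genes, and that count was 60 with DESeq2, 186 with no filter on low counts, 61 with both replicates 1 left out together and 0 to 156 with 1 library left out. Members called numbered 2 with no filter and 0 to 3 with 1 library left out, and genes called on the further lists 1 with DESeq2, 2 with no filter, 1 with both replicates 1 left out and 0 to 2 with 1 library left out. Members at an unadjusted p under 0.05 numbered 1 with library size alone (2.24% of all genes were lower at that p), 8 with no filter, 13 with both replicates 1 left out and 1 to 13 with 1 library left out. The member median was -0.57 with both replicates 1 left out and -0.55 to -0.14 with 1 library left out. Library size alone moved the median of all genes to 0.11, and the member median to -0.18. Of 39 named genes, 7 turned sign somewhere, none of them called. Cald1 was at -0.10 and Des at 0.0023 with both replicates 1 left out, and Des at 0.04 with library size alone. With 1 library left out Myh11 ran from -0.55 to 0.33, Tpm1 from -0.13 to 0.25, Cald1 from -0.03 to 0.13, Des from -0.22 to 0.02, Pdgfrb from -0.35 to 0.01, Abcc9 from -0.91 to 0.17 and Aoc3 from -0.67 to 0.11. The causes were not tested. Same-numbered libraries did not deviate together (correlations -0.0695, 0.0942 and -0.0305). No pairing by number was seen, though 3 libraries per group cannot exclude one. The fit with a replicate block called 0 genes and 0 members, with 6 members at an unadjusted p under 0.05, all lower (3.69% of all genes were), and a median of -0.36. The 7 members under the filter on low counts have no test here.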
